A study of Homo sapiens with 25 samples.

Results

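Constant ATAC regions under H3K4me3 are the stretches of the HEC-1A genome that were listed as accessible in every ATAC library and also carried H3K4me3 in every CUT&RUN library, with or without THC. The ATAC peaks of 9 libraries on chromosomes 1 to 22 and X merged into 239554 regions. A region was a member if it held a peak in 9 of 9 ATAC lists and overlapped an H3K4me3 peak by at least 1 base in 6 of 6 H3K4me3 lists. This left 14393 members, 6.01% of all regions, 67.2% of the 21415 regions present in 9 ATAC lists and 54.1% of the 26588 regions marked in 6 H3K4me3 lists. With ATAC peaks limited to a -log10 q of at least 3, the authors' measure of statistical support, 9008 regions met the rule. The members were thus chosen by the presence of peaks in the ATAC and H3K4me3 lists, so presence itself is a description here, and other constant regions serve only as a comparison. HEC-1A is an epithelial cell line from a human endometrial adenocarcinoma, and the labels give every sample the same genotype, WT. For ATAC and RNA the cells were untreated or given THC (tetrahydrocannabinol) at 20 µM for 24 h or 72 h, with 3 libraries in each group. For H3K4me3 there were 3 untreated libraries and 3 with 20 µM THC, and the labels give no duration for the latter. The untreated libraries have no time in the labels either, so time in culture and time in THC cannot be told apart.

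ATAC-seq finds open DNA by letting a transposase insert adapters into it, and CUT&RUN cuts DNA beside an antibody-bound protein. H3K4me3, trimethylation of lysine 4 on histone H3, is placed at the starts of active genes by the SET1 and MLL methyltransferase complexes, and CXXC1 directs the SET1 complexes to unmethylated CpG islands. Many such promoters belong to genes that nearly every cell uses, and many drive a pair of genes in opposite directions. The measure of RNA was TPM, which gives the transcripts of a gene as a share of all transcripts; it is scaled by transcript length and is relative to all other RNA of a library. TPM keeps no sequencing depth, and in bulk samples fewer cells of a kind and less RNA per cell cannot be told apart.

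The labelled cell type was checked against marker genes. Epithelial markers were high in all 3 groups, with EPCAM at 369, 406 and 336 mean TPM (untreated, 24 h, 72 h) and KRT8, KRT18, KRT19 and KRT7 each between 336 and 1877. PAX8, a Müllerian lineage factor, stood at 249, 406 and 312 and was the single marker with a start found in a member. The RefSeq promoter table used for starts lacks some genes, so some of the other markers may be absent from it. Of the other endometrial epithelial markers PAX2 stood at 12.95, 4.14 and 5.78 and SOX17 at 1.84, 0.489 and 0.372. FOXA2 and MUC16 were at or under 0.992. Immune markers (PTPRC, CD3E, CD14, LYZ) did not exceed a group mean of 0.0642 TPM and endothelial markers did not exceed 0.106. Of 6 stromal markers, VIM stood at 9.56, 18.3 and 21.7 and COL1A1 at 2.98, 0.712 and 0.721, while COL1A2, DCN, LUM and PDGFRB did not exceed a group mean of 0.295.

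Promoter sequences are shown first for 7 genes in members whose RNA is described below. They are the largest riser (CD68), the stress factor DDIT3, a lipid gene that fell (SCD), a replication gene (PCNA), ARID1A, SREBF2 and a gene of steady level (UBAP2L). Each runs 5′ to 3′ on the strand of the gene, from 250 bases before the RefSeq start to 30 bases after it (GRCh38.p14), and all of its bases lie inside the member. Capitals mark the motifs searched, on either strand. These were the GC box GGGCGG, the box named for its letters CCAAT, the ETS motif CCGGAAG, the NRF1 motif GCGCATGC, the YY1 motif AAGATGGC and the cyclic AMP element (CRE) with TGACGTCA. The others were the TATA motif TATAAA, the E-box with CACGTG, the joint ATF4 and C/EBP motif TGATGCAA, the sterol element TCACCCCAC and the AP-1 motif TGACTCA.
CD68, chr17:7579388-7579667, plus strand: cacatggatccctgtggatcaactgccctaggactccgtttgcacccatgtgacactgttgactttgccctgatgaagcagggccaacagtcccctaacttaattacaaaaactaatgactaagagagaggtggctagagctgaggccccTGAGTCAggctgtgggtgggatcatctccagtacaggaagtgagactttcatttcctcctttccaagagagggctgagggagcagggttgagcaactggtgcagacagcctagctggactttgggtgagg
DDIT3, chr12:57520485-57520764, minus strand: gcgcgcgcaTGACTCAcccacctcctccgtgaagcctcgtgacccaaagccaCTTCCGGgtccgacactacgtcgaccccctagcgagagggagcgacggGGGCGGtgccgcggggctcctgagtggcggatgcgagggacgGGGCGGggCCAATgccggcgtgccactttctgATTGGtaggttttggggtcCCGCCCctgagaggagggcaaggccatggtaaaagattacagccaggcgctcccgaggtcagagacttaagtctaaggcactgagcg
SCD, chr10:100346983-100347262, plus strand: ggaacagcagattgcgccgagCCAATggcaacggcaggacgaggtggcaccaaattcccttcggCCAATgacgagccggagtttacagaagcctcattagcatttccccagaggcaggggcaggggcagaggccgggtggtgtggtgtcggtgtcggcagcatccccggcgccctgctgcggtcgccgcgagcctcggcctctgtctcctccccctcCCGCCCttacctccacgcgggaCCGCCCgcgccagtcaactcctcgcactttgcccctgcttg
PCNA, chr20:5126593-5126872, minus strand: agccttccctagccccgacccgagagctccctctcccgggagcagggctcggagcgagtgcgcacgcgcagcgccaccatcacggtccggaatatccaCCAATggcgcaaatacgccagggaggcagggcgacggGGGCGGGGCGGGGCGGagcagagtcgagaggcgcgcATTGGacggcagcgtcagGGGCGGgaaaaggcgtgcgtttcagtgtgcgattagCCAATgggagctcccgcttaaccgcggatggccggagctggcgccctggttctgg
ARID1A, chr1:26695765-26696044, plus strand: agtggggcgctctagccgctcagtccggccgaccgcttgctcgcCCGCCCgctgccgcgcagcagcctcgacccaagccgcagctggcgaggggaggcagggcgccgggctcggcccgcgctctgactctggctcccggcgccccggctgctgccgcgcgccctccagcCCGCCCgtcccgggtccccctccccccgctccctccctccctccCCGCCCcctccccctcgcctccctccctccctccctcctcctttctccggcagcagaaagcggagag
SREBF2, chr22:41832855-41833134, plus strand: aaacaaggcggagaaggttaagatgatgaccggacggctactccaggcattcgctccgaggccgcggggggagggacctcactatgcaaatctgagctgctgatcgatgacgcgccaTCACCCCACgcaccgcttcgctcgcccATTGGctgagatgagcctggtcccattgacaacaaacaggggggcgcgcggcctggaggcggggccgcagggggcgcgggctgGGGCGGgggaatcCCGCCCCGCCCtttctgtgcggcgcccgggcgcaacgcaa
UBAP2L, chr1:154220599-154220878, plus strand: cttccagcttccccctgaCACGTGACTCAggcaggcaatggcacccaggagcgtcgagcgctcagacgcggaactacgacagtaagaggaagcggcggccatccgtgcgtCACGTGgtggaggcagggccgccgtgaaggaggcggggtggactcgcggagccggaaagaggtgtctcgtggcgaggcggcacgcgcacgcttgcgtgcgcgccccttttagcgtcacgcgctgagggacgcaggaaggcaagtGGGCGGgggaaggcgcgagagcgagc
The CD68 window held a single motif, an AP-1 match starting 100 bases before the gene start. DDIT3 held 3 GC boxes, 2 CCAAT boxes, 1 ETS match and 1 AP-1 match at 241 bases before the start. SCD held 2 CCAAT boxes and 2 GC boxes, and PCNA held 3 CCAAT boxes and 4 GC boxes, 3 of which overlap in one run. ARID1A held 3 GC boxes and no other motif searched. SREBF2 was the one of the 7 with the sterol element, 133 bases before the start, beside 1 CCAAT box and 3 GC boxes. In UBAP2L an E-box and the AP-1 match share bases 228 before the start. A match describes the letters of this window and says nothing about a factor being bound.

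Over all 11559 promoter windows of 300 bases with a start in a member, GC boxes were in 74.5%, against 45.0% of all 34961 windows of the RefSeq table. The ETS motif was in 21.8% against 10.3%, the NRF1 motif in 6.13% against 3.06%, the YY1 motif in 5.55% against 2.89% and the CRE in 3.33% against 1.85%. CCAAT (37.8% against 34.6%) and the E-box (10.0% against 7.27%) stood closer to the table, while the TATA motif was rarer, 3.61% against 11.5%, as were AP-1 (3.02% against 4.92%) and TGATGCAA (0.355% against 0.864%). The median GC content was 66.3% against 58.7%, and the ratio of observed to expected CpG was 0.86 against 0.58. The members' windows are thus richer in GC and CpG than the table, and the part of this composition in the motif shares was not tested. Much of this was shared by the 2414 windows at regions in 1 to 8 ATAC lists with H3K4me3 in 6. There GC boxes were in 71.7%, NRF1 in 5.39%, YY1 in 4.93%, ETS in 14.1%, CCAAT in 23.8% and TATA in 6.50%. Their median GC content was 68.0% and their CpG ratio 0.84. In the 210 windows at constant regions without H3K4me3, GC boxes were in 53.8% and NRF1 in 9.05%. Among members whose gene rose at least 2-fold at 24 h (387 windows), TATAAA was in 10.1%, TGACTCA in 5.94% and TGATGCAA in 2.33% (9 windows). Where the gene fell at least 2-fold (1026 windows), the same motifs were in 3.70%, 1.36% and 0 windows, and CCAAT was in 44.5%. The ETS motif was in 17.1% of the windows of risers, 14.6% of those of fallers and 24.3% of those of genes not called. These shares are descriptions without a test.

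The edge of the rule was set mainly by 1 library. Another 3670 regions had H3K4me3 in 6 lists but an ATAC peak in 8 of 9, and 3050 of these lacked only the second 72 h library, whose list was the shortest with 38495 peaks. A further 383 lacked only the first 72 h library. On the H3K4me3 side, 600 regions were in 9 ATAC lists but 5 H3K4me3 lists, of which 214 lacked only the first THC library and 170 only the first untreated one. Just outside the rule, the regions in 8 ATAC lists had a median span of 603 bases and a median H3K4me3 width of 1965 bases, against 842 and 2859 for the members. Here and below, the H3K4me3 peak width at a region is the summed whole length of the peaks of a list that touch it. The share of regions marked in all 6 H3K4me3 lists was 1.46% among the 139952 regions seen in 1 ATAC list and 39.8% among those seen in 8.

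The members spanned 842 bases at the median, from 318 at the 5th percentile to 1654 at the 95th, and together covered 12893007 bases. Constant regions with no H3K4me3 peak in any list (4672) had a median span of 574 bases, and a longer region has more bases with which to meet a mark. A RefSeq gene start lay in 7635 members (53.0%), whose median span was 982 bases. Another 1315 (9.14%) held only an end of a gene that the promoter table does not hold, and 5443 (37.8%) held neither, with a median span of 603 bases. Members with neither lay 9479 bases from the nearest start or such end at the median, 63.5% of them within a gene body, and 2649 (18.4% of members) lay over 10 kb away. Starts on chromosome 8 were not used here, so its 491 members are all in the last 2 classes. By contrast 3.60% of the constant regions without H3K4me3 and 15.5% of the 12195 marked regions with peaks in 1 to 8 ATAC lists held a start. The members held 11559 starts of 9592 genes. Of the members with a start, 5509 served 1 gene, 2052 served 2 genes, 74 served 3 or more, and 2019 had starts on both strands.

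Of the 5 widest members, 2 held a gene start. The widest, chr1:1075940-1080940, spanned 5001 bases in the body of a predicted gene, and its H3K4me3 peaks were narrow for its span, 1285, 1313 and 1288 bases in the untreated libraries. The second, chr18:106761-111082, spanned 4322 bases and held no start. The third, chr11:65426937-65430543 (3607 bases), lay in NEAT1, the long noncoding RNA that builds paraspeckles, under H3K4me3 peaks of 14806, 15326 and 14880 bases in untreated cells. The fourth, chr7:73830768-73833919 (3152 bases), held the start of CLDN4, a tight-junction claudin, and the fifth, chr11:704993-708106 (3114 bases), those of DEAF1 and EPS8L2. The members with the most starts were chr20:10433400-10435461 (MKKS and SLX4IP), chr6:32153026-32154947 (PPT2 and PRRT1), chr17:43170032-43171362 (NBR1), chr12:11171102-11171746 (PRH1 and SMIM10L1) and chr17:6638888-6641597 (KIAA0753 and TXNDC17).

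Within each ATAC library the width of a member was the number of its bases under peaks. The median width was 590, 496 and 658 bases in untreated libraries 1 to 3, 454, 496 and 656 at 24 h and 613, 368 and 620 at 72 h. The lowest value came from the second 72 h library, and every group overlapped both others. In the constant regions without H3K4me3 the widths were 359, 255 and 368, then 233, 300 and 360, then 377, 274.5 and 347. Members were thus wider in 9 of 9 libraries, by 230.8 bases on average (550 ± 101 against 319 ± 54.4, SD over 9 libraries; lowest difference 93.5, highest 296). A longer region has more bases with which to meet an H3K4me3 peak, so width is not independent of how members were chosen, and this difference is a description with no test. Among members, those with a gene start were wider (448 to 798 bases by library) than those with neither a start nor an end (261 to 446).

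**Figure D1:**
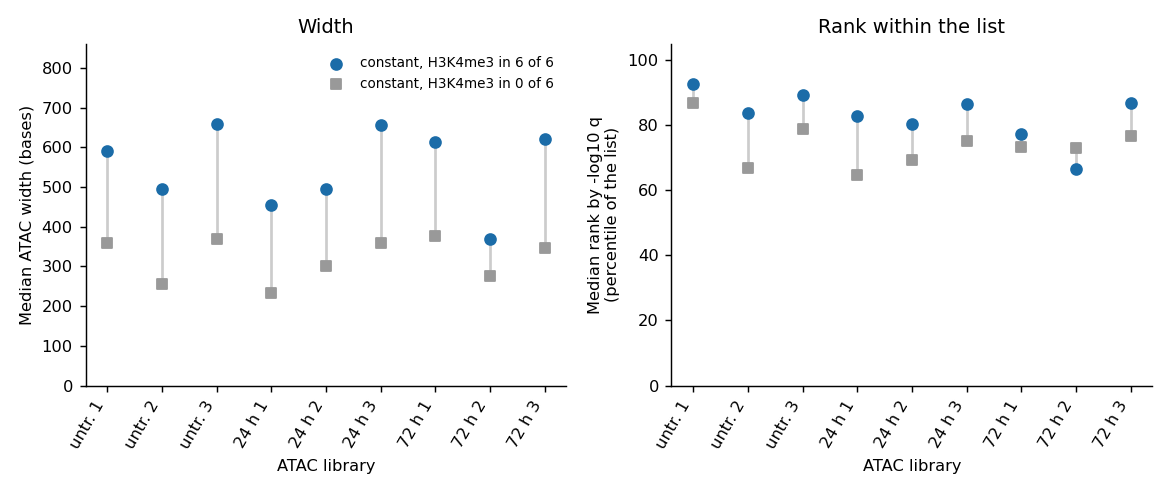
Median ATAC width in bases and median rank percentile by -log10 q of the members and of constant regions with no H3K4me3 peak, for each of the 9 libraries (x axis, by group). The members are wider in every library, and their rank is lower than that of the unmarked regions in the second 72 h library alone.

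A peak's rank is its percentile by the authors' -log10 q within its own list, so a high rank is a peak with strong statistical support among its neighbours. The median rank of members was 92.8, 83.8 and 89.4 in the untreated libraries, 83.0, 80.4 and 86.6 at 24 h and 77.3, 66.7 and 86.8 at 72 h. These ranks come from lists of different lengths, so they cannot be compared between groups, and no such test was run. Unmarked constant regions had ranks of 87.0, 66.8 and 78.9, then 64.7, 69.2 and 75.0, then 73.4, 73.2 and 76.8. Members ranked higher in 8 of 9 libraries, by 9.07 percentile points on average (83.0 ± 7.66 against 73.9 ± 6.74; exact two-sided sign-flip p = 0.015625), and the second 72 h library went the other way by 6.48 points. With ATAC peaks limited to a -log10 q of at least 3, the difference was 4.99 points and did not pass the same test (exact p = 0.1640625). The rank of a region is that of its best peak, and a longer region has more bases in which to hold a strong peak. Rank is thus not independent of how members were chosen. The test compares the same regions in each library and cannot tell the mark from length. The members held 11.8% of the peaks of the longest list (150884 peaks) and 39.4% of those of the shortest.

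The median width of members did not differ detectably between treatments. The mean over libraries was 581 ± 81.3 bases untreated and 535 ± 107 at 24 h, a difference of -46.0 bases (SD, n = 3; exact two-sided permutation p = 0.6). At 72 h it was 534 ± 144 bases, a difference of -47.7 from untreated (exact permutation p = 0.7) and of -1.67 from 24 h (exact permutation p = 1.0). With 3 libraries a group this test cannot give less than 0.1, and the spread between libraries of a group, up to 144 bases, was larger than each difference. Without the second 72 h library the difference of 72 h from untreated was 35.2 bases in the other direction. Members whose groups do not overlap were counted without a test and without a comparison with regions outside the members, so the counts show no response. At 24 h 248 of 14393 were wider than in every untreated library (1.72%) and 721 narrower (5.01%). At 72 h 402 were wider (2.79%) and 896 narrower (6.23%). The second 72 h list holds the fewest peaks and the narrowest members, and its part in the last count was not tested.

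H3K4me3 reached far beyond the open DNA. The summed whole length of the H3K4me3 peaks that touch a member was 2823, 2833 and 2833 bases at the median in the untreated libraries. With THC it was 2807, 2872 and 2995 bases. Peaks split or joined in calling can move this sum, in single members too, and their part was not tested. The THC values lay on both sides of the untreated ones, and the difference of 61.7 bases (2830 ± 5.77 against 2891 ± 95.5, SD, n = 3) gave an exact two-sided permutation p of 0.4. Counting only bases inside the member, marked width was 813 ± 2.89 untreated and 818 ± 3.79 with THC, a difference of 5.0 bases. This measure is capped by the span of the member, since between 86.3% and 90.6% of members were marked over their full length, so its likeness between groups shows nothing about the mark. Members with a gene start had H3K4me3 peaks of 3321 to 3517 bases and ranks of 82.8 to 85.4, against 1436 to 1718 bases and ranks of 54.2 to 62.2 for members with neither a start nor an end.

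The mark was also asymmetric about the start. Of the 4734 members with exactly 1 start, 4605 to 4674 by library had an H3K4me3 peak over the start. At the median that peak reached 1132 to 1200 bases before the start and 1866 to 1946 after it. The side before the start was the longer one in 21.4% to 21.7% of these peaks, in all 6 libraries. An ATAC peak lay over the start in 3614 (second 72 h library) to 4618 (untreated library 3) of the members. These ATAC peaks were closer to balanced, with 206.5 to 294 bases before the start and 187 to 383 after it. Which ATAC side was the longer depended on the library: the side before the start was longer in 42.1% (untreated library 3) to 57.7% (first 24 h library) of these peaks. The merged region reached 370 bases before and 500 after.

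**Figure D2:**
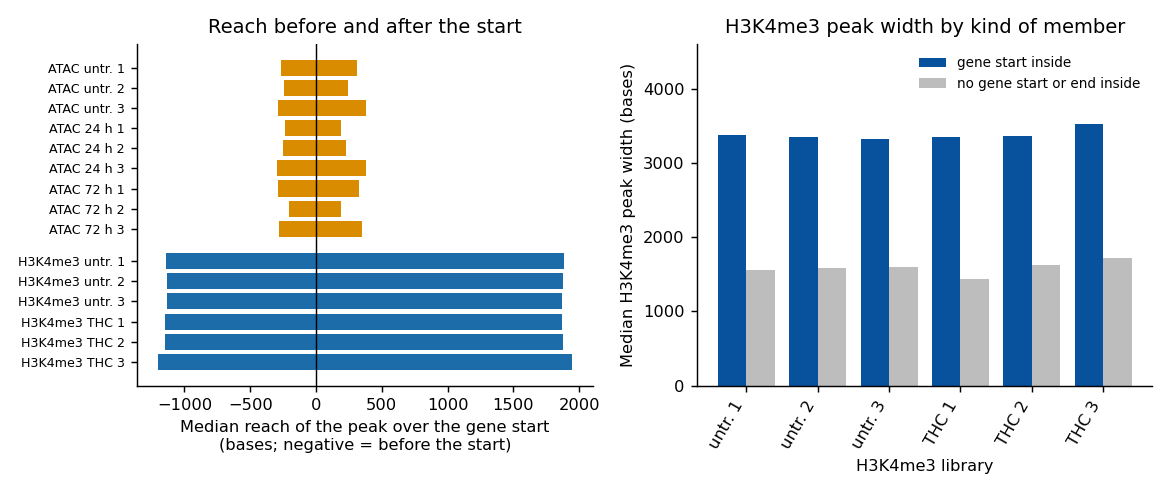
Median bases covered before and after the gene start by the peak over it, for the 9 ATAC and 6 H3K4me3 libraries, in members with exactly 1 start (left, x axis in bases), and median H3K4me3 peak width in bases by library for members with a gene start and with neither a start nor an end (right). The H3K4me3 peaks reach further after the start than before it in 6 of 6 libraries, while the ATAC side that is longer varies by library.

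Of the 9592 genes with a start in a member, 8680 were found in the RNA table and 7888 were tested, those with a mean of at least 1 TPM over the 9 libraries. That is 90.9% of the matched genes, against 21.7% of the matched genes with a start only outside members. Among tested genes the median level at members was 26.2, 27.2 and 26.1 TPM untreated, 22.2, 22.8 and 22.4 at 24 h and 27.4, 27.3 and 26.9 at 72 h. The 2271 tested genes whose starts in the promoter table all lie outside members stood at 11.3, 11.7 and 11.2, then 9.75, 9.65 and 9.74, then 13.2, 12.9 and 13.2. Genes at members were higher in 9 of 9 libraries, by 1.09 on average on the log2(TPM + 1) scale (lowest 0.97, highest 1.16; exact two-sided sign-flip p = 0.00390625, the smallest it can give). That p measures agreement between libraries, each with the same genes, and not the spread over genes. The filter on mean TPM acts on the level compared here, and with every gene above 0 TPM in at least 1 library the difference was 4.38. Genes at members took 61.9% to 63.8% of all TPM.

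RNA was tested with limma on log2(TPM + 1), and a gene is called here at a Benjamini-Hochberg adjusted p below 0.05 over all 13753 tested genes. The p-values measure the spread between these libraries, which the labels call biological replicates. At 24 h, 1882 of the 7888 member genes were higher than untreated (23.9%; 25.0% of all tested genes) and 4375 were lower (55.5%; 51.7% of all), with a median log2 change of -0.26 (all genes -0.23). At 72 h, 3009 were higher (38.1%; 40.1% of all) and 2883 lower (36.5%; 33.0% of all), with a median of 0.01 (all genes 0.06). The members' shares were near the background in each direction and are no result about the members. Rises of at least 2-fold numbered 319 (4.04%) against 5.28% of all genes at 24 h and 476 (6.03%) against 8.17% at 72 h. Falls of at least 2-fold numbered 814 (10.3%) against 10.6% of all genes at 24 h and 405 (5.13%) against 5.56% at 72 h. Between the THC times, 4424 member genes were higher at 72 h than at 24 h (56.1%; 54.9% of all) and 1444 lower (18.3%; 17.8% of all).

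The split of directions depended on scaling. Centring each library on its median gave 2773 higher and 3183 lower at 24 h, 46.6% higher among called genes against 30.1% without centring, and moved the median of all genes from -0.23 to -0.01. Between 72 h and 24 h, centring gave 2316 higher and 3180 lower, 42.1% higher against 75.4%. At 72 h against untreated it gave 2575 higher and 3409 lower, 43.0% against 51.1%. The gene values below are without centring, so each is to be read beside the median of all genes at its time.

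The comparisons at 24 h and 72 h share their untreated libraries, so their values are set side by side. At both times 1482 member genes were higher than untreated (18.8%; 19.7% of all tested genes) and 2465 were lower (31.2%; 27.8% of all). Another 1154 were lower at 24 h and not called at 72 h (14.6%; 14.3% of all), and 572 were called at neither time (7.25%; 8.81% of all). A set of 756 was lower at 24 h and higher at 72 h (9.58%; 9.61% of all), and 130 were higher at 24 h and lower at 72 h (1.65%; 1.52% of all), all of these member genes also called between 72 h and 24 h. These shares too were near the background and are no result about the members. After centring these last 2 counts were 297 and 413, so the first count in particular follows the scaling.

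Lists of genes by role were counted next. The counts are member genes called higher and lower, medians are log2 changes, and the medians of all tested genes are -0.23 at 24 h and 0.06 at 72 h. Of all tested genes 25.0% were higher and 51.7% lower at 24 h, and 40.1% were higher and 33.0% lower at 72 h, and each list is to be read beside these shares. The integrated stress response, in which phosphorylated eIF2α favours translation of ATF4, had 16 tested genes at members and all 16 were higher at both times (medians 1.75 and 1.69). DDIT3, the pro-apoptotic factor CHOP, changed by 4.60 and 4.12 at 24 h and 72 h. SLC3A2, the heavy chain of amino acid exchangers, changed by 3.84 and 4.37, and SESN2, a leucine sensor that restrains mTORC1, by 2.63 and 2.52. The unfolded protein response, which answers misfolded protein in the endoplasmic reticulum, had 11 of 17 higher and 6 lower at 24 h, then 13 higher and 1 lower at 72 h (3 lower with centring). HERPUD1 (2.15 and 2.89) and DNAJB9 (1.40 and 2.15), both of endoplasmic-reticulum quality control, and the transcription factor XBP1 (1.89 and 2.13) rose at both times, as did the chaperone HSPA5 (2.11 and 2.01), which was chosen after its values were seen. CALR, an endoplasmic-reticulum lectin chaperone, fell at 24 h and rose at 72 h (-0.39 and 0.30), as did SEL1L, an adaptor of the degradation ligase HRD1 (-0.47 and 0.45), and both kept these directions with centring.

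Lists of lipid synthesis moved the other way. All 15 cholesterol synthesis genes at members were lower at both times (medians -1.13 and -1.04), also with centring. IDI1, which isomerises isopentenyl diphosphate, changed by -2.11 and -1.56, TM7SF2, a sterol reductase, by -1.94 and -1.54, and MVK, mevalonate kinase, by -1.87 and -0.75. Of 15 fatty acid genes, 11 were lower and 2 higher at 24 h and 10 lower and 2 higher at 72 h (medians -0.96 and -0.43). SCD, which introduces the first double bond into saturated fatty acyl chains, changed by -4.43 and -4.44, ACSL1, a long-chain acyl-CoA synthetase, by -3.02 and -2.62, and SLC25A1, the mitochondrial citrate carrier, by -1.05 and -1.17.

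Genes of chromatin regulation at members mostly fell at 24 h. Of 15 SWI/SNF genes, which encode the nucleosome remodeller, 14 were lower and 1 higher at 24 h, and 9 were lower and 2 higher at 72 h (medians -0.47 and -0.29). PHF10 (-1.45 and -0.41), ARID1A (-1.41 and -0.59) and PBRM1 (-1.09 and -0.43), all subunits, fell at both times. Of 8 genes of the H3K4 methylation machinery, 6 were lower and 1 higher at 24 h, against 3 lower and 1 higher with centring, and 2 were lower and 2 higher at 72 h (4 and 2 with centring). WDR82, a subunit of the SET1 complexes, changed by -0.84 and -0.50, and KDM1A, a demethylase of H3K4, by -0.26 and -0.65. CXXC1, which recruits the SET1 complexes, was lower at 24 h and higher at 72 h (-0.15 and 0.46), and with centring its 24 h value was 0.07 and not called.

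Genes of DNA replication and cell division fell, and most ribosomal protein genes rose. All 20 DNA replication genes at members were lower at both times (medians -1.23 and -0.80), with 19 and 20 lower after centring. FEN1, the flap endonuclease, changed by -1.94 and -0.73, and GINS1, a subunit of the replicative helicase, by -1.93 and -1.26. Of 19 mitosis genes 17 were lower and none higher at 24 h (2 higher with centring) and 19 were lower at 72 h, among them ANLN, a contractile-ring protein (-1.88 and -1.82), and the kinesins KIF11 (-1.87 and -1.17) and KIF20A (-1.72 and -1.29). Of 17 ribosomal protein genes 12 were higher and 1 lower at 24 h and 16 higher at 72 h (medians 0.26 and 0.47), with near-identical pseudogene copies that make single values uncertain. RPS18 changed by 0.44 and 1.05 and RPS12 by 0.36 and 1.03. Nuclear genes of oxidative phosphorylation were lower in 19 of 20 at 24 h (12 with centring) and 17 of 20 at 72 h, with NDUFB3, a subunit of complex I, at -1.48 and -1.37. Mitochondrial ribosomal protein genes were lower in 18 and 15 of 23 and higher in 3 and 2, and with centring the 24 h counts were 8 lower and 5 higher.

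Proteostasis split between its branches. Proteasome genes were lower in 18 of 22 at both times (2 higher), as with PSMD1 (-1.10 and -1.09), and centring left 9 lower at 24 h. Heat shock chaperones were lower in 8 of 12 and higher in 2 at 24 h, near the 51.7% of all genes that were lower, and with centring lower in 6 and higher in 3. At 72 h 11 of 12 were lower, beside 33.0% of all genes. HSP90AB1 and HSPA8, abundant cytosolic chaperones, were higher at 24 h and lower at 72 h (0.38 and -0.59 for HSP90AB1, 0.44 and -0.45 for HSPA8), also with centring. Autophagy and lysosome genes were higher in 8 of 13 and lower in 4 at 24 h, and higher in 10 with none lower at 72 h (9 and 2 with centring). Among them were the LC3 family genes MAP1LC3B (2.50 and 2.47) and GABARAPL1 (1.49 and 2.02) and the phosphoinositide effector WIPI1 (0.78 and 2.05).

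Signalling lists at members were short. NF-kB genes were higher in 6 of 7 at 24 h and 5 of 7 at 72 h with none lower, including the feedback inhibitors TNFAIP3 (1.96 and 1.69) and NFKBIA (1.60 and 1.79). Interferon response genes were higher in 9 of 11 at 24 h and in 7 at 72 h, with 2 and 3 lower. RSAD2, the antiviral enzyme viperin, changed by 4.40 and 2.27, and ISG15, a ubiquitin-like modifier, by 2.64 and 0.07, where the second value was not called (limma adjusted p = 0.75). DDX60 was higher at 24 h and lower at 72 h (0.92 and -0.49). Spliceosome and SR protein genes were lower in 12 of 20 and higher in 3 at 24 h, against 8 and 7 with centring, and lower in 11 and higher in 6 at 72 h. The 24 h count is near the 51.7% of all genes that were lower. SRSF3, an SR splicing factor, changed by -1.59 and -1.40 and CLK3, a kinase of SR proteins, by 1.09 and 0.12. For general transcription the median of 23 genes was -0.16 at 24 h and 0.13 at 72 h, and centring turned the 24 h median to 0.05. POLR2E, an RNA polymerase II subunit, changed by -0.68 and -1.11, and CDK7, the kinase of TFIIH, by 1.14 and 0.84.

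**Figure D3:**
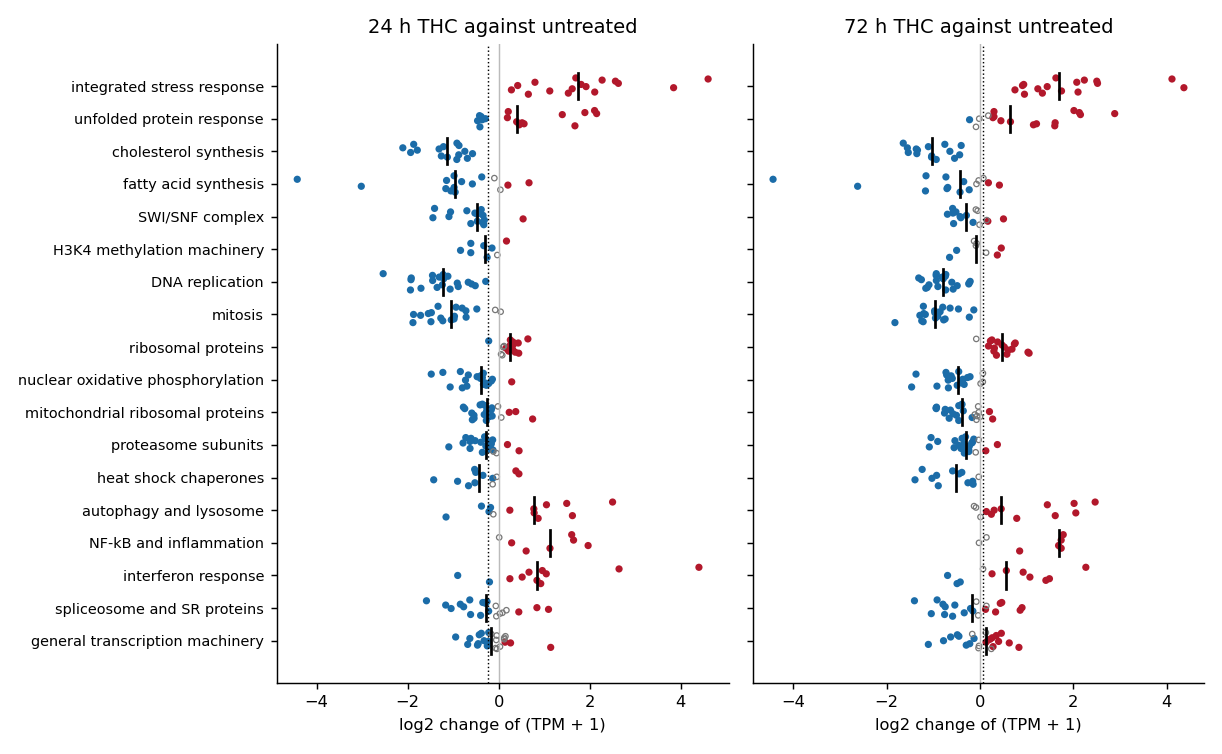
Log2 changes on the log2(TPM + 1) scale of the tested genes of each list that start in a member, at 24 h and 72 h against untreated (x axis), with a bar at the median of each list and a dotted line at the median of all tested genes. Red points were called higher, blue lower, and open points not called. All 16 integrated stress response genes lie above 0 and all 15 cholesterol synthesis and 20 DNA replication genes below it at both times.

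Single genes are given with every library. CD68 (ENSG00000129226.14), a lysosomal glycoprotein known as a macrophage marker, had the largest rise, and its start lies in chr17:7579154-7579700, 547 bases long. It stood at 0.298, 0.258 and 0.190 TPM in the untreated libraries, 127, 137 and 133 at 24 h and 29.1, 30.0 and 39.4 at 72 h. All THC libraries lay far above the untreated ones, and all 24 h libraries above all 72 h ones. On the log2 scale it changed by 6.74 (SE 0.10, limma adjusted p = 2.71e-11) at 24 h and 4.75 (SE 0.10, adjusted p = 1.75e-10) at 72 h. The 4 immune markers named above had means at or under 0.0642 TPM in all 3 groups. The ATAC width at its start was 237, 114 and 108 bases untreated, 129, 488 and 431 at 24 h and 419, 290 and 110 at 72 h, with ranks from 1.47 to 21.6 in the untreated libraries, so this promoter was among the weaker listed peaks before THC. Its H3K4me3 peaks were 1325, 4849 and 1407 bases untreated and 1060, 3666 and 1494 with THC. Widths overlapped between groups in both assays.

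CDKN1A (ENSG00000124762.13), the cyclin-dependent kinase inhibitor p21, starts in chr6:36678475-36678958, where the RNA gene DINOL starts too. It stood at 4.06, 4.45 and 4.33 TPM in the untreated libraries, 227, 216 and 213 at 24 h and 134, 136 and 149 at 72 h. Groups did not overlap, with log2 changes of 5.38 (SE 0.05, limma adjusted p = 2.17e-12) at 24 h and 4.74 (SE 0.05, adjusted p = 4.93e-12) at 72 h. ATAC widths of 317, 300 and 446 bases untreated, 291, 322 and 287 at 24 h and 299, 227 and 322 at 72 h overlapped, and so did H3K4me3 widths of 3435, 3792 and 3037 bases untreated and 3191, 3737 and 3293 with THC. DDIT3 (ENSG00000175197.12) starts on the minus strand in chr12:57519749-57520966. Its levels were 26.2, 26.4 and 27.7 TPM in the untreated libraries, 646, 711 and 662 at 24 h and 465, 482 and 497 at 72 h, again without overlap. The log2 changes were 4.60 (SE 0.05, limma adjusted p = 2.17e-12) at 24 h and 4.12 (SE 0.05, adjusted p = 4.93e-12) at 72 h. Its ATAC widths were 560, 559 and 723 bases untreated, 540, 758 and 783 at 24 h and 998, 684 and 1011 at 72 h. Its H3K4me3 peaks were 6440, 6104 and 6528 bases untreated and 7751, 7293 and 7156 with THC. Each THC library was thus above each untreated one in H3K4me3 but not in ATAC. Of all members 8.18% were wider in H3K4me3 in this way, a share to be read beside each such gene below. In ATAC 5.01% were narrower at 24 h and 6.23% at 72 h.

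SLC3A2 (ENSG00000168003.16) starts in chr11:62855682-62856385, beside the noncoding host gene SNHG1. It stood at 112, 107 and 89.7 TPM in the untreated libraries, 1478, 1487 and 1481 at 24 h and 2226, 2119 and 2081 at 72 h, and 72 h exceeded 24 h in every library. Its log2 changes were 3.84 (SE 0.07, limma adjusted p = 1.02e-10) at 24 h and 4.37 (SE 0.07, adjusted p = 4.29e-11) at 72 h. Its ATAC widths were 393, 419 and 475 bases untreated, 437, 314 and 608 at 24 h and 449, 138 and 374 at 72 h and its H3K4me3 peaks 8676, 9789 and 7395 bases untreated and 8436, 8241 and 8828 with THC, both overlapping. HERPUD1 (ENSG00000051108.15) starts in chr16:56931854-56933184 and stood at 39.1, 40.1 and 39.1 TPM in the untreated libraries, 169, 185 and 182 at 24 h and 289.5, 299 and 307 at 72 h. Its log2 changes were 2.15 (SE 0.04, limma adjusted p = 2.21e-10) at 24 h and 2.89 (SE 0.04, adjusted p = 3.77e-11) at 72 h. Its ATAC widths were 1240, 979 and 1275 bases untreated, 911, 914 and 1254 at 24 h and 1276, 171 and 1314 at 72 h, with the second 72 h library lowest, and its H3K4me3 peaks of 3511, 3354 and 3446 bases untreated and 3810, 4167 and 4307 with THC were wider in each THC library.

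Other large rises at 24 h had smaller values at 72 h. SAT1, which acetylates spermidine and spermine for export, stood at 75.8 TPM untreated, 786 at 24 h and 136 at 72 h on average. Its H3K4me3 peaks were 3103, 3487 and 3378 bases untreated and 3704, 3640 and 3793 with THC, above in all THC libraries, while its ATAC widths at 72 h were all below the untreated ones. SEMA7A, a membrane-anchored semaphorin, stood at 5.21 TPM untreated, 59.6 at 24 h and 10.4 at 72 h, with H3K4me3 peaks of 1779, 1975 and 1988 bases untreated and 2212, 2782 and 2211 with THC, again above in all THC libraries. EGR1, an immediate-early zinc-finger factor, stood at 36.0 TPM untreated, 388 at 24 h and 148 at 72 h, TM4SF19 at 99.6 TPM untreated, 1033 at 24 h and 582 at 72 h and the antisense-named transcript EPB41L4A-AS1 at 12.6 TPM untreated, 111 at 24 h and 62.0 at 72 h. At 72 h SERPINB8, a serine protease inhibitor, reached 3.24 TPM untreated, 26.0 at 24 h and 46.2 at 72 h, NIBAN1 5.26 TPM untreated, 31.3 at 24 h and 55.9 at 72 h and BTG1, an antiproliferative factor, 11.4 TPM untreated, 69.4 at 24 h and 85.7 at 72 h. The neutral amino acid transporter SLC1A4 (3.05 TPM untreated, 7.12 at 24 h and 28.5 at 72 h) and KLHL21, a cullin adaptor (8.60 TPM untreated, 27.2 at 24 h and 69.3 at 72 h), rose more at the later time. All 10 genes passed the limma test at both times.

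Among falls, SCD (ENSG00000099194.6) starts in chr10:100346925-100347567. It stood at 205, 213 and 201 TPM in the untreated libraries, 8.59, 8.32 and 8.99 at 24 h and 7.85, 9.25 and 8.66 at 72 h. The groups were far apart and the THC times overlapped. SCD changed by -4.43 (SE 0.06, limma adjusted p = 1.38e-11) at 24 h and -4.44 (SE 0.06, adjusted p = 2.03e-11) at 72 h on the log2 scale. Its ATAC widths were 623, 292 and 242 bases untreated, 209, 203 and 240 at 24 h and 257, 202 and 420 at 72 h, all 24 h libraries being below the untreated ones, yet its H3K4me3 peaks were 2674, 2668 and 2539 bases untreated and 2994, 2909 and 3709 with THC, wider in each THC library. SREBF2 (ENSG00000198911.12), the factor that drives cholesterol synthesis genes and whose promoter holds the sterol element shown above, starts in chr22:41832513-41833766. Its levels were 153, 167 and 164 TPM in the untreated libraries, 112, 116 and 108 at 24 h and 88.6, 93.4 and 95.3 at 72 h, lower in each THC library. Log2 changes were -0.52 (SE 0.05, limma adjusted p = 4.15e-06) at 24 h and -0.80 (SE 0.05, adjusted p = 2.15e-07) at 72 h. ATAC widths of 638, 416 and 1171 bases untreated, 527, 522 and 521 at 24 h and 651, 373 and 535 at 72 h and H3K4me3 peaks of 4179, 3798 and 3648 bases untreated and 3721, 3604 and 4289 with THC overlapped between groups. Of other genes of lipid synthesis, stress and proliferation, SREBF1, ATF3 and MKI67 have starts outside the members and FASN is not in the promoter table.

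PCNA (ENSG00000132646.11), the sliding clamp of DNA polymerases, starts in chr20:5126446-5127818, which also holds a start of CDS2. It stood at 279.7, 268 and 257 TPM in the untreated libraries, 43.6, 45.6 and 46.6 at 24 h and 150.2, 142 and 127 at 72 h. All 72 h libraries lay between the 24 h and the untreated ones. The log2 changes were -2.54 (SE 0.06, limma adjusted p = 4.56e-10) at 24 h and -0.94 (SE 0.06, adjusted p = 3.8e-07) at 72 h. Its ATAC widths of 847, 827 and 848 bases untreated, 837, 634 and 866 at 24 h and 555, 526 and 1342 at 72 h and H3K4me3 peaks of 4206, 5070 and 4213 bases untreated and 3669, 3734 and 4461 with THC overlapped. ARID1A (ENSG00000117713.20), a DNA-binding subunit of SWI/SNF, starts in chr1:26695394-26696288 and stood at 49.4, 53.1 and 51.0 TPM in the untreated libraries, 20.1, 17.6 and 18.2 at 24 h and 32.9, 32.3 and 36.1 at 72 h. It too was lowest at 24 h and between the other groups at 72 h, with log2 changes of -1.41 (SE 0.06, limma adjusted p = 2.2e-08) at 24 h and -0.59 (SE 0.06, adjusted p = 1.4e-05) at 72 h. Its ATAC widths were 895, 651 and 707 bases untreated, 328, 608 and 692 at 24 h and 488, 318 and 501 at 72 h, so the 72 h libraries were below the untreated ones. Its H3K4me3 peaks were 9721, 10900 and 10039 bases untreated and 8716, 9712 and 10209 with THC and overlapped.

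HAVCR1 (ENSG00000113249.13), a phosphatidylserine receptor, starts in chr5:157057857-157059559 and stood at means of 244 ± 3.59 untreated, 33.3 ± 0.665 at 24 h and 25.1 ± 1.69 at 72 h (SD, n = 3). The log2 changes were -2.83 (SE 0.05, limma adjusted p = 7.91e-11) at 24 h and -3.23 (SE 0.05, adjusted p = 3.77e-11) at 72 h. At its start the ATAC widths were 531, 390 and 520 bases untreated, 296, 1068 and 1118 at 24 h and 1294, 746 and 1476 at 72 h. All 72 h libraries lay above the untreated ones, as in 2.79% of all members. Other falls at 24 h were KCNJ16, a potassium channel (36.2 TPM untreated, 1.83 at 24 h and 3.20 at 72 h), H2AX, the histone variant phosphorylated at DNA breaks (79.4 TPM untreated, 10.2 at 24 h and 26.9 at 72 h), CLDN16, a claudin of magnesium transport (339 TPM untreated, 47.4 at 24 h and 38.0 at 72 h), and CDKN2C, an inhibitor of CDK4 and CDK6 (15.8 TPM untreated, 1.61 at 24 h and 4.87 at 72 h). GDA, guanine deaminase, stood at 35.3 TPM untreated, 5.05 at 24 h and 8.23 at 72 h, and ID3, an inhibitor of helix-loop-helix factors, at 83.0 TPM untreated, 13.5 at 24 h and 11.4 at 72 h. H2AX fell while its H3K4me3 peaks were wider in each THC library, 5462, 5502 and 5023 bases untreated and 6105, 5549 and 5831 with THC. Falls that were larger at 72 h included PLK2, a polo-like kinase (79.2 TPM untreated, 33.8 at 24 h and 7.47 at 72 h), the receptor FGFR4 (80.0 TPM untreated, 39.0 at 24 h and 11.9 at 72 h) and ARHGDIB (60.6 TPM untreated, 33.4 at 24 h and 8.18 at 72 h), with VEPH1 (36.4 TPM untreated, 14.3 at 24 h and 4.26 at 72 h) and MALL (36.4 TPM untreated, 6.23 at 24 h and 4.53 at 72 h) beside them.

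The most abundant and the steadiest genes were named among those with a start in a member. FTL, the ferritin light chain, stood at 8176 TPM untreated, 23145 at 24 h and 17832 at 72 h and EEF1A1, the elongation factor, at 6424 TPM untreated, 11482 at 24 h and 12026 at 72 h, both with pseudogene copies that make their values uncertain. GAPDH stood at 6589 TPM untreated, 6489.6 at 24 h and 5226 at 72 h and PPIA at 6475 TPM untreated, 4453 at 24 h and 4178 at 72 h. UBAP2L (ENSG00000143569.19), a stress-granule protein, starts in chr1:154220077-154221925 and stood at 129.5, 133 and 118 TPM in the untreated libraries, 123, 129 and 128 at 24 h and 134, 122 and 121 at 72 h. The groups overlapped throughout, with log2 changes of -0.00 (SE 0.06, limma adjusted p = 0.99) at 24 h and -0.01 (SE 0.06, adjusted p = 0.87) at 72 h. Its ATAC widths were 1139, 725 and 1614 bases untreated, 1287, 787 and 1390 at 24 h and 1274, 764 and 1831 at 72 h, and its H3K4me3 peaks were 5804, 6814 and 6667 bases untreated and 6658, 6569 and 6602 with THC. COPS7B, AIG1, STK25 and PARL were the next steadiest of these, with log2 changes from -0.01 to 0.03 at either time. Their steadiness is that of TPM without centring, since centring moved the 24 h values of UBAP2L, COPS7B and AIG1 to 0.22, 0.20 and 0.20.

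Of the 299 members that hold the start of a tested list gene, H3K4me3 was wider in each THC library than in each untreated one in 20 (6.69%; 8.18% of all members) and narrower in 11 (3.68%; 4.24% of all). These shares were near the background, and DDIT3, HERPUD1 and SCD above are among those that were wider. MAP1LC3B, which encodes LC3B of the autophagosome, stood at 40.9 TPM untreated, 235 at 24 h and 230.4 at 72 h, with H3K4me3 peaks of 3777, 3848 and 4089 bases untreated and 4628, 4189 and 4696 with THC, above in each THC library. PSMD1, a subunit of the proteasome cap, stood at 95.6 TPM untreated, 44.2 at 24 h and 44.5 at 72 h, with peaks of 3790, 3861 and 3978 bases untreated and 3320, 3381 and 3541 with THC, and KDM1A at 76.2 TPM untreated, 63.7 at 24 h and 48.2 at 72 h, with peaks of 3766, 3896 and 3805 bases untreated and 3537, 3499 and 3618 with THC. In these last 2 genes each THC library was below each untreated one.

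Widths at members were then set beside the RNA change of their gene. Taking members with 1 tested gene, the median log2 change of ATAC width at 24 h, relative to the median member, was 0.01 where the gene rose at least 2-fold (284 members), 0.01 where it fell at least 2-fold (603) and 0.02 where it was not called (1225). At 72 h the values were -0.01 (378), -0.01 (334) and -0.01 (1499). Where the gene rose at least 4-fold they were 0.03 at 24 h and -0.01 at 72 h, and where it fell at least 4-fold 0.03 (36 members) and 0.05 (30 members). The ATAC medians of rising and falling genes were thus close together beside the spread over members, and their difference was not tested. For H3K4me3 the median was 0.02 where the gene rose at least 2-fold at either time, and 0.08 (58 members) and 0.09 (47 members) where it rose at least 4-fold at 24 h and 72 h. Where the gene fell at least 2-fold it was -0.01 and -0.02, and where it was not called -0.01 at both times. In the class that rose at least 4-fold at 24 h, the library medians of H3K4me3 width overlapped between groups. On the log2 scale relative to the median member they were 0.17, 0.23 and 0.12 untreated and 0.15, 0.28 and 0.22 with THC. These H3K4me3 differences were not tested.

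Single members were then compared by library. In all 14393 members the 3 THC H3K4me3 widths were all above the 3 untreated ones in 1178 (8.18%) and all below in 610 (4.24%). Where the gene rose at least 2-fold at 24 h, 42 of 284 were wider (14.8%) and 2 narrower (0.704%). Where it fell at least 2-fold at 24 h, 45 of 603 were wider (7.46%) and 25 narrower (4.15%), close to the background. For rises at 72 h, 52 of 378 were wider (13.8%) and 4 narrower (1.06%), and for falls 21 of 334 were wider (6.29%) and 23 narrower (6.89%). Where the gene was not called at 24 h, 8.41% were wider and 3.76% narrower. Where it was not called at 72 h, 7.74% were wider and 3.47% narrower. Because the H3K4me3 labels give no duration, neither RNA time can be matched to it. In ATAC at 24 h, 2 of the 284 rising members were wider (0.704%) and 8 narrower (2.82%). Of the 603 falling members 4 were wider (0.663%) and 31 narrower (5.14%), against 1.72% and 5.01% of all members. Of the 1225 members whose gene was not called at 24 h, 10 were wider in ATAC (0.816%) and 68 narrower (5.55%). The wider shares of rising and falling members were thus near that of genes not called.

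**Figure D4:**
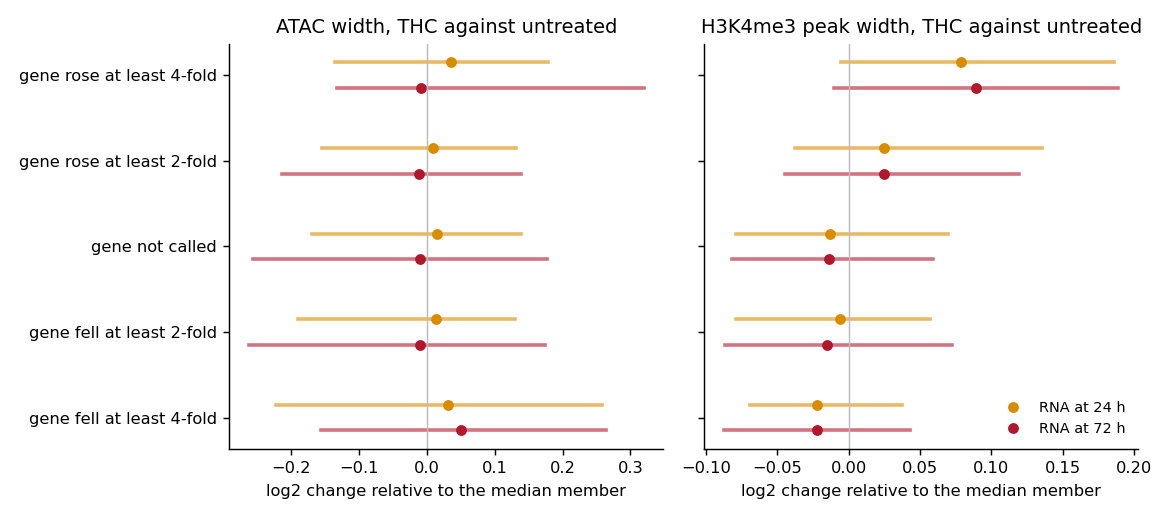
Median log2 change of ATAC and H3K4me3 width at members, relative to the median member (x axis; points are medians, lines run from the lower to the upper quartile over members), by what the RNA of their gene did at 24 h or 72 h (rows). ATAC medians stay between -0.01 and 0.05, while H3K4me3 medians reach 0.08 and 0.09 where the gene rose at least 4-fold. For genes that rose at least 4-fold at 24 h, the H3K4me3 medians by library overlapped between groups.

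Across members, the level of RNA went with the width of the mark more than with the width of open DNA. Over 6006 members with 1 tested gene, the Spearman correlation with untreated TPM was 0.33 for H3K4me3 width and 0.05 for ATAC width, a description over regions of the same libraries. Splitting the members into 4 equal classes by H3K4me3 width, from the narrowest to the widest (median widths 2220, 2965, 3672 and 5101 bases), median untreated TPM was 15.04, 26.1, 33.5 and 45.5. For 4 such classes by ATAC width it stayed between 26.7 and 29.1. At 72 h 34.3%, 33.9%, 36.8% and 44.8% of genes were lower in the same order (33.0% of all tested genes), and 40.7%, 41.4%, 37.3% and 30.9% were higher (40.1% of all). At 24 h the shares lay closer together, from 53.0% to 56.1% lower (51.7% of all) and from 24.4% to 26.2% higher (25.0% of all). The differences between classes were not tested.

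Members shared by 2 genes gave a view of neighbouring starts. In 988 members with 2 tested genes on opposite strands (831 of them head to head), both genes were lower at 24 h in 367 and both higher in 46. They were called in opposite directions in 211 (21.4%), and at least 1 was not called in 364. Of single member genes 23.9% were higher and 55.5% lower at that time, and the pairs were not compared with pairs elsewhere. At 72 h both were higher in 185, both lower in 149, opposite in 203 (20.5%), with at least 1 not called in 451. With centring the opposite pairs numbered 238 at 24 h and 202 at 72 h, while both-lower pairs at 24 h numbered 217.

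The member chr6:112086768-112087730 holds the starts of FAM229B on the plus strand and TUBE1, epsilon-tubulin, on the minus strand. FAM229B went from 9.09 ± 1.06 TPM to 2.54 ± 0.531 at 24 h and 0.906 ± 0.494 at 72 h, while TUBE1 went from 8.31 ± 0.155 to 23.4 ± 1.76 and 22.7 ± 1.29 (SD, n = 3). The log2 changes were -1.51 and -2.43 for FAM229B and 1.39 and 1.35 for TUBE1. In chr3:127598082-127598709, MCM2, a subunit of the replicative helicase, changed by -1.22 at 24 h and -0.73 at 72 h, and TPRA1 by 1.08 and 1.41. In chr10:89414269-89415332, the interferon-induced gene IFIT5 changed by 0.96 and 0.57, and LIPA, the lysosomal acid lipase, by -1.55 and -0.88. All 6 genes passed the limma test at both times. These 3 pairs were chosen after their values were seen, as those with the largest opposite changes at 24 h by the smaller of the 2 changes. Pairs in which either gene name held LOC, -AS or -DT were left out of that choice.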

How the data were processed

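The files used hold 9 RNA, 9 ATAC and 6 H3K4me3 libraries; 1 IgG library was not analysed here. One listed immune marker is not reported here. RNA values are TPM as deposited by the authors. Peaks were called per library by the authors, and the deposited lists give each peak a score, a fold enrichment (a ratio) and -log10 p and -log10 q values, of which -log10 q was used to rank and filter within a list. The submitters' processing notes name GRCh38 as the build and, without roles, MACS2 2.2.7.1, MACS3, Bowtie2, Salmon, Picard, SAMtools, FastQC and Trim Galore. Read shifting and removal of duplicates are not stated in the sources used. Neither TPM nor peak lists keep depth, so depth is unknown and no counting interval is given.

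Overlapping or adjoining ATAC peaks were merged with pandas 2.3.3 and numpy 2.4.6 (Python 3.11.15). Gene starts came from a RefSeq promoter table (GRCh38.p14), and Ensembl identifiers were joined to it by symbol or unique synonym. RNA was tested with limma 3.58.1 (R 4.3.3, trend) over 3 groups, on log2(TPM + 1) of the 13753 genes whose mean was at least 1 TPM, with Benjamini-Hochberg adjustment and a threshold of 0.05. Library medians were compared with exact two-sided permutation or sign-flip tests. The scripts were tested on simulated data.

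Named genes were, among those with a start in a member, the 10 largest called rises and falls per comparison with untreated (mean of at least 5 TPM, groups not overlapping), the 5 highest, the 5 steadiest with at least 50 TPM, up to 3 called genes of each list, and ARID1A, SREBF1, SREBF2, FASN, SCD, DDIT3, ATF3, CDKN1A, PCNA and MKI67. The regions named were the 5 widest and the 5 with most starts. The members, lists and tests were chosen with earlier results of these data known. Alternatives covered peak thresholds, merging, scaling, filters, pseudocounts, the replicate block and leaving out each library.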

Additional observations from a re-analysis of the deposited data

Results flagged for a closer look

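Member genes that went opposite ways at the THC times were picked out because the change from untreated differed in sign between 24 h and 72 h and the difference between these times passed limma's test itself. There were 756 genes at members lower at 24 h and higher at 72 h, and 130 higher at 24 h and lower at 72 h. Both times share the untreated libraries. With each library centred on its median the counts were 297 and 413, and with TPM rescaled without mitochondrially encoded genes they were 661 and 166. Of the 13 list genes among them, CALR, SEL1L, HSP90AB1, HSPA8 and DDX60 were called in both directions under each of the 3 scalings, and the other 8 were not called at one of the times under at least 1 scaling.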

How the results depend on the processing

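The number of members was 9008 with ATAC peaks at a -log10 q of at least 3, and 13686 to 14400 under 3 other choices (H3K4me3 -log10 q of at least 5, H3K4me3 over at least 50% of the region, peaks up to 200 bases apart merged). Leaving out each library gave 14391 to 17441 members, the highest without the second 72 h ATAC library. Members chosen without that list, an alternative added after seeing the data, had 6906, 6513 and 6501 called genes at 24 h, at 72 h and between them, against 6257, 5892 and 5868. Counting genes absent from the promoter table as well, also added later, gave 7282, 6879 and 6796.

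Leaving out each ATAC library gave width differences of -106.3 to -5.33 bases at 24 h, -90.8 to 35.2 at 72 h and -44.8 to 81.2 between THC times. The sign turned without the second 72 h library (35.2 and 81.2) and without the third 24 h library (58.7), and with the longest single peak as width (12). None of these passed an exact test. The H3K4me3 difference inside members, a measure capped by their span, ranged from 3.33 to 7.17 bases. Within libraries the width difference was 222.7 to 248.0 bases and the rank difference 7.92 to 11.01 points when each library was left out, and the rank difference was 4.99 points at the stricter ATAC threshold, where it no longer passed. Calls at members ranged over 5982 to 6133, 5563 to 5649 and 5469 to 5683 when each RNA library was left out, and the level difference over 1.08 to 1.11. Without a filter on low TPM that level difference was 4.38.

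Replicate numbers did not pair the RNA libraries: 9 same-numbered pairs had correlations of -0.20 to 0.25, 2 of them over 0.1. With the number as a block, calls were 6285, 5908 and 5890, and the width tests gave exact p-values of 0.5, 0.5 and 1.0 for ATAC and 0.25 for H3K4me3, the smallest that 3 pairs allow. Of 2314 alternative values for 178 single-gene results, 2282 counted as unchanged. These include any change of sign where neither the main nor the alternative fit called the gene. Another 20 lost the call, 6 gained it and 6 changed sign with a call in either fit. The last were the 24 h values of GAPDH (0.20), UBAP2L (0.22), COPS7B (0.20), AIG1 (0.20), MRPL12 (0.066) and HSPD1 (0.0856) with libraries centred on their median, which shifts every gene by the same amount. Peak lists keep no depth, so an absent peak may be a shallow library.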

Other observations

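Some members were open and marked in every library at genes with little RNA. Of the matched genes at members, 792 had a mean under 1 TPM and 24 were listed at 0 in all 9 RNA libraries. Taking members that hold starts of 1 gene only, the 281 whose gene had a mean under 1 TPM had a median H3K4me3 peak of 1809 bases and a median ATAC width of 540 bases. The 4975 with a gene of at least 1 TPM had 3241.5 and 656 bases, and the 766 with a gene of at least 100 TPM had 3894.75 and 671 bases. The GC box was in 72.8% of the windows of genes below the filter, against 74.5% of all member windows. Single cases, chosen after their values were seen, had wide peaks: the member chrX:24149397-24150679 of the antisense gene ZFX-AS1, listed at 0 throughout, lay under H3K4me3 peaks of 9185 to 10070 bases, and chr17:81394975-81395515 of BAHCC1 (mean 0.0867 TPM) under peaks of 6634 to 7003 bases. Whether an overlapping or divergent gene outside the promoter table starts in these members was not tested.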
